A study of Homo sapiens with 4 samples.

Results

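Fc gamma receptors bind the constant part of IgG at the surface of leukocytes. Their expression was followed here in 2 related myeloid cell lines, with and without 5-azacytidine (AZA), through every probe whose gene name on the array was FCGR1A, FCGR1B, FCGR2A, FCGR2B, FCGR2C, FCGR3A, FCGR3B, FCER1G or FCGRT. These 9 names gave 11 probes for 8 genes, of the 58185 gene probes and 43311 gene names on the array, and no probe carried the name FCGR3B. The genes were chosen by name, with the increase of FCGR2A on these arrays already known. The AZA response of the receptors is therefore a description and supports nothing beyond these arrays.

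The experiment consisted of 4 one-colour arrays (Cy3), 1 per condition. MDS-L is a line established from a patient with myelodysplastic syndrome, and MDS-L/CDA was derived from it by transducing CDA, the gene of cytidine deaminase, which inactivates cytidine analogues and makes the line resistant to AZA. They are called the parental and the transduced line here. Each line received 0.1% DMSO as vehicle or 1 μM AZA for 72 h in medium with FBS, IL-3 and 2-mercaptoethanol, and AZA is a cytidine analogue that is incorporated into nucleic acid and traps DNA methyltransferases. The labels contradict themselves in places, giving the AZA dose also as 1 mM, and naming in 1 field the opposite treatment for the MDS-L AZA and the MDS-L/CDA vehicle samples, whose title, description and source name give the treatments used here. The labels give 20 ng/mL IL-3, where the study's methods name another concentration.

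With 1 array per condition no difference has a replicate check, and no test was made. The errors given here are those that the scanner software attaches to a spot, which cover the spot and neither the hybridization nor the culture. Signals are processed signals in scanner units, and relative signals are processed signals divided by the 75th percentile of the same array, which lay between 37.3 and 52.9. Between 32.6% and 36.5% of the probes carried the scanner software's flag for a signal well above background. The lowest signal with that flag was between 9.98 and 11.1, and a probe below background gives only an upper limit. The CDA probe was below background on all 4 arrays, with processed signals of 4.48 to 5.53, so the arrays do not show the transduced gene. All 8 identity markers listed for the line were above background on every array. Among them were CD34 (relative signals of 8.30 to 15.4), PTPRC (22.6 to 35.8) and MYB (274 to 438). KIT was the lowest of them with vehicle, at 0.503 in the parental and 0.346 in the transduced line.

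The Fc gamma receptors differ in what they do with IgG. FCGR1A encodes CD64, the high-affinity receptor, and FCGR2A, FCGR2B and FCGR2C encode the low-affinity CD32 receptors, of which FCGR2A and FCGR2C carry an activating motif (ITAM) in their own tails whereas FCGR2B carries an inhibitory motif (ITIM) that recruits phosphatases. FCGR3A and FCGR3B encode CD16. FCER1G encodes the common gamma chain, a small ITAM subunit that CD64, CD16A and the IgE receptor need at the surface. FCGRT encodes the neonatal Fc receptor (FcRn), an MHC class I-like protein that rescues IgG and albumin from lysosomes. In blood, CD64 is typical of monocytes, FCGR2A of monocytes and neutrophils, FCGR2B of B cells and basophils, and FCGR3A of NK cells.

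The low-affinity receptor genes lie in a duplicated stretch of chromosome 1, and FCGR2C arose there by an unequal crossover that joined an FCGR2B-like front to an FCGR2A-like tail. What a probe can tell apart is set by where it lies, so the probes behind the main results are shown here 5′ to 3′, with positions on hg19 as the array files give them. The FCGR2A probe lies at chr1:161488022-161488081, the FCGR2C probe at chr1:161570485-161570544 and the FCER1G probe at chr1:161188875-161188934, all on the plus strand, and the first 30 of their 60 bases are given. FCGR2B has a probe in the part that encodes the IgG-binding domain next to the membrane (chr1:161642959-161643018) and a probe in the part that encodes the tail with the inhibitory motif (chr1:161647120-161647289), both given whole.
FCGR2A probe: atggagactggaaaaatcctgagcaaacaa
FCGR2C probe: aagagcccaattaccagaaccacattaagt
FCGR2B extracellular probe: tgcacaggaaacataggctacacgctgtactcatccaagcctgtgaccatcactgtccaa
FCGR2B tail probe: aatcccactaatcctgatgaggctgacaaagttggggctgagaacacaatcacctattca
FCER1G probe: agtggttcctcctccctgttaaagactaat
The tail probe covers 170 bases of the genome with its 60 bases, so it spans a splice junction. The files list transcripts of both FCGR2A and FCGR2C for the FCGR2A probe and likewise for the FCGR2C probe, so signals of these 2 genes cannot be told apart. Transcripts of FCGR2B alone are listed for both FCGR2B probes, but the extracellular parts of all 3 CD32 genes are closely alike, and only the tail probe lies in a part that FCGR2A and FCGR2C lack. No member probe shared a run of 16 bases with any other gene probe on the array, on either strand, so the probes report on separate stretches of these transcripts.

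The CD32 signals were higher with AZA in both lines. In the parental line 3 of the 8 measured member probes passed 2-fold upward with AZA, against 6.54% of all probes measured in that pair, and 1 passed it downward, against 6.15%. In the transduced line 3 of 7 passed it upward, against 2.48% of all probes, and 0 downward, against 3.2%. The 3 probes were the same in both lines, those of FCGR2A, FCGR2C and the extracellular part of FCGR2B. These contrasts were in view when the genes were chosen, so nothing is read from the counts.

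FCGR2A, which drives phagocytosis of IgG-coated particles, had processed signals of 81.1 ± 8.48 (spot error) with vehicle and 552 ± 55.3 with AZA in the parental line, and of 41.9 ± 5.16 with vehicle and 267 ± 26.8 with AZA in the transduced line. Both AZA arrays were above both vehicle arrays, and within each treatment the parental line was above the transduced one. After scaling, the AZA/vehicle ratio was 6.76 in the parental line (log2 2.76 ± 0.21, spot error) and 6.97 in the transduced line (log2 2.80 ± 0.23). The ratio ranked 69 among the 19448 probes measured on both arrays of the parental line and 3 among the 18080 measured on both arrays of the transduced line.

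The FCGR2C probe gave processed signals of 129 ± 13.2 with vehicle and 640 ± 64.0 with AZA in the parental line, and of 69.7 ± 7.59 with vehicle and 320 ± 32.1 with AZA in the transduced line. The order of the 4 arrays was that of FCGR2A. The ratios were 4.92 in the parental line (log2 2.30 ± 0.21) and 5.02 in the transduced line (log2 2.33 ± 0.21), with ranks of 130 and 10. FCGR2C is a functional activating receptor only in people who carry an open reading frame allele, and which allele these lines carry is not shown by the arrays.

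FCGR2B, the inhibitory receptor of the family, gave unlike pictures through its 2 probes. The extracellular probe had processed signals of 22.4 ± 2.99 with vehicle and 134 ± 13.6 with AZA in the parental line, and of 14.6 ± 2.73 with vehicle and 73.4 ± 7.69 with AZA in the transduced line, all well above background. Its ratios were 5.96 in the parental line (log2 2.58 ± 0.24) and 5.49 in the transduced line (log2 2.46 ± 0.31), and with normexp background correction they were 2.60 and 1.89, below 2-fold in the transduced line. The tail probe was below background in both vehicle arrays, at 2.52 and 9.85, and above it in both AZA arrays, at 19.4 ± 2.95 in the parental and 14.7 ± 2.65 in the transduced line. Taken against the lowest signal that counts as detected, this is an increase of at least 1.93-fold in the parental line and at least 1.45-fold in the transduced line. The tail probe, whose stretch the other CD32 genes lack, thus showed the same direction at a signal close to the detection limit, with no 2-fold change established. How much of the signal of the extracellular probe came from FCGR2A or FCGR2C transcripts was not tested.

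**Figure D1:**
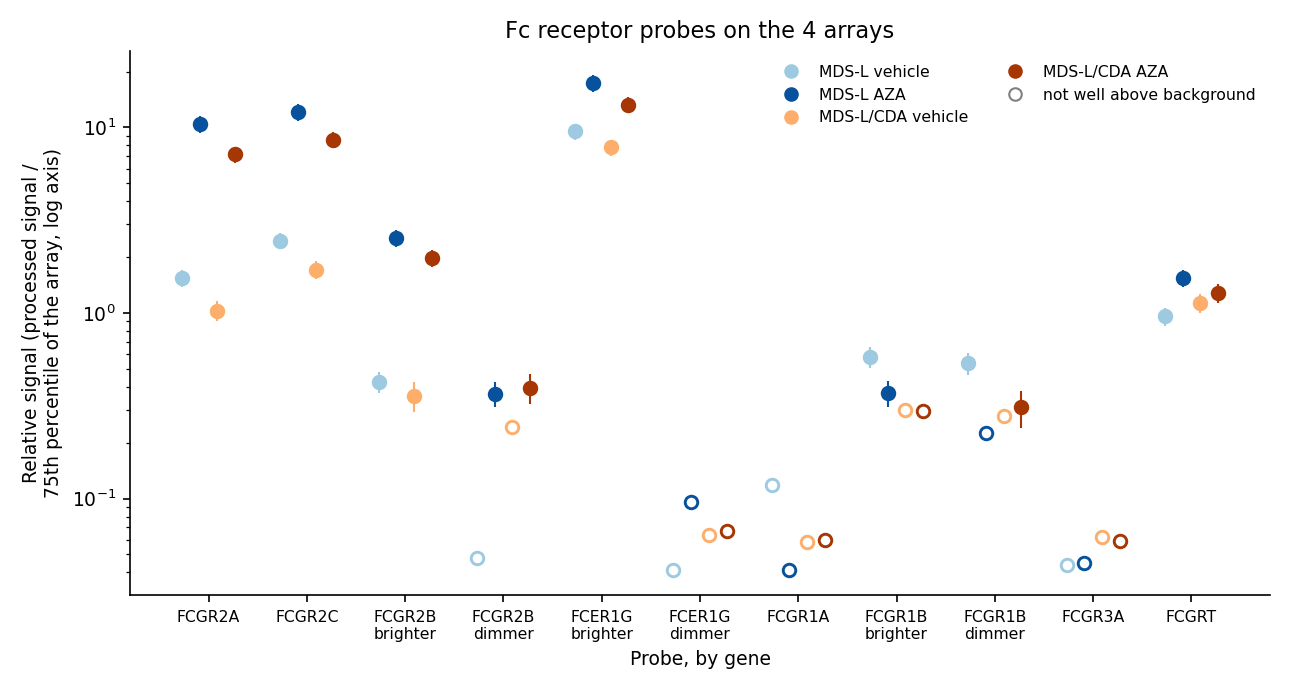
Relative signal of each Fc receptor probe on the 4 arrays, on a log axis, with filled points for probes well above background, open points for probes below it and bars for the spot error of the scanner software. Where a gene has 2 probes they are named brighter and dimmer, and for FCGR2B the brighter is the extracellular and the dimmer the tail probe. FCGR2A goes from 1.54 to 10.4 in the parental line and from 1.03 to 7.16 in the transduced line, while FCGR1A and FCGR3A are open points on every array.

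FCER1G, the gamma chain, was measured on all 4 arrays by the probe shown above. Its processed signals were 501 ± 50.2 with vehicle and 917 ± 91.7 with AZA in the parental line, and 318 ± 31.9 with vehicle and 495 ± 49.5 with AZA in the transduced line. The ratios of 1.81 in the parental line (log2 0.86 ± 0.20) and 1.70 in the transduced line (log2 0.77 ± 0.20) were under 2-fold in both lines. Of the probes measured on both arrays of a pair, 5.58% had a larger ratio in the parental line and 4.24% in the transduced line. The other FCER1G probe, which the files assign to a single Ensembl transcript, was below background on every array.

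The probe named FCGR1A, the high-affinity receptor, was below background on all 4 arrays, with relative signals of 0.041 to 0.118. No ratio can be given. The transcripts listed for that probe matched no RefSeq gene, so a lack of FCGR1A RNA is not established. The FCGR1B probes, designed for partial copies of FCGR1A and listed with transcripts that RefSeq now names FCGR1BP and FCGR1CP, were near the detection limit. Whether they also detect FCGR1A transcripts was not tested. One of them had processed signals of 30.6 ± 3.99 in the parental line with vehicle and 19.7 ± 3.21 in the parental line with AZA, a ratio of 0.639 (log2 -0.65 ± 0.30), and was below background in both arrays of the transduced line. The other was above background at 28.1 ± 3.76 in the parental line with vehicle and below it at 12.0 in the parental line with AZA, at least 2.37-fold lower with AZA, and in the transduced line went from 11.3, below background, to 11.6 ± 2.57. FCGR3A, the CD16 receptor of NK cells and macrophages, was below background on all 4 arrays, with relative signals of 0.044 to 0.062.

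FCGRT, whose product recycles IgG instead of signalling, had processed signals of 50.5 ± 5.5 with vehicle and 81.7 ± 8.52 with AZA in the parental line, and of 46.2 ± 5.31 with vehicle and 47.7 ± 5.42 with AZA in the transduced line. The parental AZA array stood above the other 3, which lay within their spot errors of one another before scaling. The ratio was 1.61 in the parental line (log2 0.68 ± 0.22) and 1.13 in the transduced line (log2 0.18 ± 0.23), both under 2-fold.

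**Figure D2:**
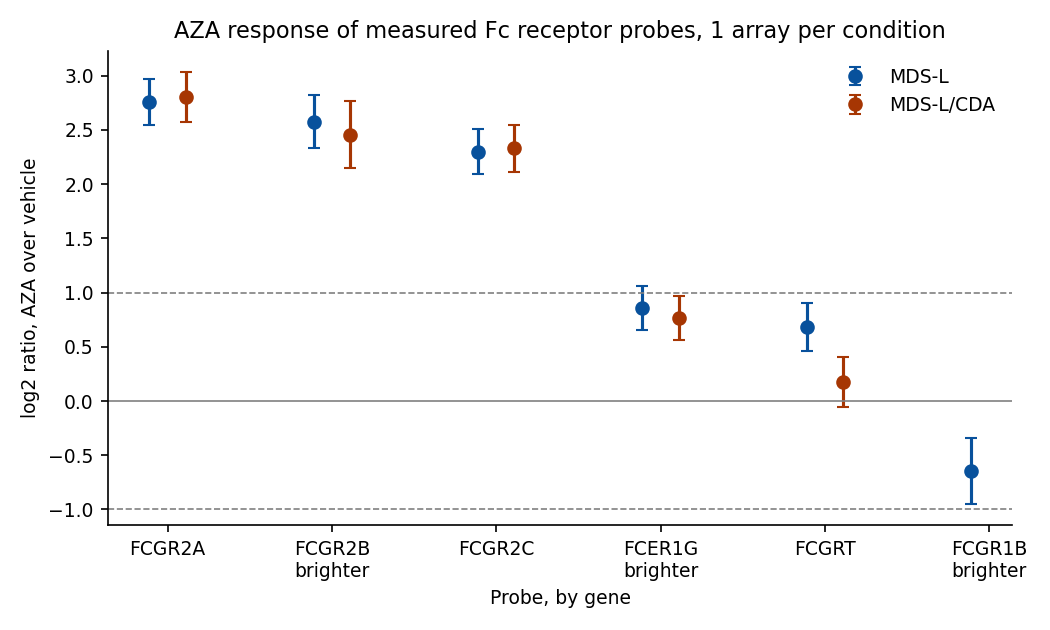
log2 ratio of AZA over vehicle for the Fc receptor probes measured on both arrays of a pair, in the parental (MDS-L) and the transduced (MDS-L/CDA) line, with bars for the spot error and dashed lines at 2-fold. The FCGR2 probes lie between 2.30 and 2.80, FCER1G at 0.86 and 0.77, and FCGRT at 0.68 and 0.18, while FCGR1B has a measured ratio in the parental line only.

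The responses of the sensitive and the resistant line were set against each other. With 75th percentile scaling the difference between the log2 ratios, parental minus transduced, was -0.04 for FCGR2A, -0.03 for FCGR2C, 0.12 for the extracellular probe of FCGR2B and 0.09 for FCER1G, each smaller than its spot error of 0.29 to 0.39. It was 0.51 for FCGRT, with a spot error of 0.32. These values depended on the normalization. With median scaling the difference was -0.53 for FCGR2A, -0.52 for FCGR2C, -0.37 for the extracellular probe of FCGR2B, -0.39 for FCER1G and 0.02 for FCGRT, and with normexp background correction it was 0.37 for FCGR2A, 0.25 for FCGR2C and 0.46 for the extracellular probe of FCGR2B. Over the 17809 probes measured on all 4 arrays the median size of this difference was 0.37, and 6.60% of them had a smaller difference than FCGR2A and 4.55% a smaller one than FCGR2C. This difference was not tested. Of the same 17809 probes, 137 (0.769%) passed 2-fold upward in both lines, and 14 were at least 4-fold higher in both. The probes named FCGR2A, FCGR2B and FCGR2C were 3 of these 14, although signals of FCGR2A and FCGR2C cannot be told apart. Among the others were CCL2, TP53INP1, SH2D2A, TNF, VWF, CYP1A1, GATA1, FCER1A, HDC and HBD.

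**Figure D3:**
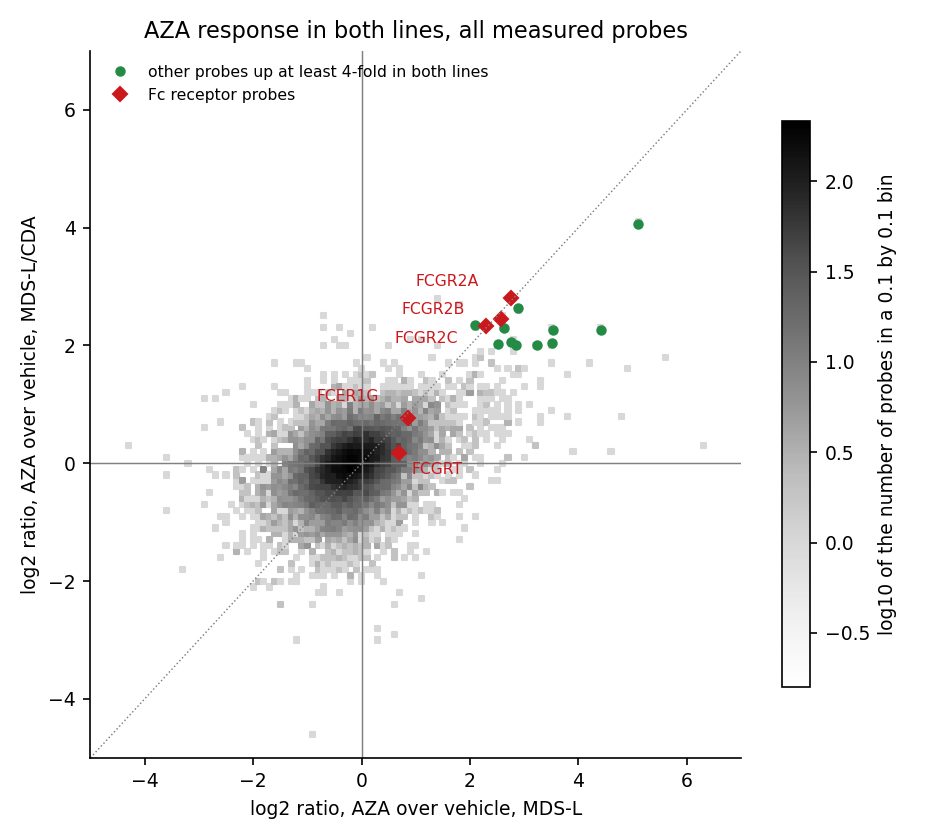
log2 ratio of AZA over vehicle in the parental line (horizontal) and the transduced line (vertical) for the 17809 probes measured on all 4 arrays, counted in bins shaded by the number of probes, with Fc receptor probes as red diamonds and the other probes at least 4-fold higher in both lines as green circles. The 3 FCGR2 probes lie close to the dotted line of equal response, whereas most of the green circles lie to its right.

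The genes most like the FCGR2 probes over the 4 arrays were found by the root mean square difference of log2 signals after each probe was centred on its own mean, among 17808 other probes. For FCGR2A they included FCGR2B (0.19), FCGR2C (0.23), CYP1A1 (0.28), a xenobiotic-metabolizing cytochrome, and SH2D2A (0.32), a T cell adaptor. For FCGR2C they included FCGR2B (0.15), SAMD14 (0.16), SIGLEC6 (0.19) and CYP1A1 (0.23). For the extracellular probe of FCGR2B they included SH2D2A (0.15), FCGR2C (0.15), FCGR2A (0.19) and HSD3B7 (0.26). The nearest genes to FCER1G were P2RX1 (0.015), PILRA (0.022), C10orf54 (0.023), EVI5L (0.025) and NUTM2B (0.044), each with a ratio between 1.64 and 1.96 in either line. The difference between FCER1G and the FCGR2 probes was larger, at 0.76 to 0.99. With 4 arrays, 1 per condition, a small difference means a like order and like steps and no more. Signals of FCGR2A and FCGR2C cannot be told apart, and the share of either in the extracellular FCGR2B signal was not tested. Nothing is therefore read from the likeness of these probes to one another.

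The lines were then compared under the same treatment. Between the vehicle arrays 0 of the 7 measured member probes were at least 2-fold higher in the transduced than in the parental line, against 2.08% of all probes, and 0 were at least 2-fold lower, against 2.71%. The transduced over parental ratios were 0.666 for FCGR2A, 0.695 for FCGR2C, 0.844 for the extracellular probe of FCGR2B, 0.818 for FCER1G and 1.18 for FCGRT, which turned to 0.821 with median scaling. Of these arrays, both FCGR1B probes were above background on that of the parental line alone, at least 1.92-fold and at least 1.93-fold lower in the transduced line. With AZA in both lines 0 of 8 were at least 2-fold higher, against 5.62%, and 0 were lower, against 5.1%. The ratios there were 0.687 for FCGR2A, 0.710 for FCGR2C, 0.777 and 1.08 for the extracellular and tail probes of FCGR2B, 0.767 for FCER1G and 0.831 for FCGRT, and that of the tail probe turned to 0.759 without scaling. The FCGR2A, FCGR2C and extracellular FCGR2B signals were thus lower in the transduced line under both treatments, by less than 2-fold with this scaling. Without scaling, both FCGR2A, with a log2 ratio of -1.05, and FCGR2C were at least 2-fold lower between the AZA arrays. Between the vehicle arrays 2 member probes were at least 2-fold lower in the transduced line without scaling, and 4 with median scaling.

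The stretch of chromosome 1 around the receptors was then examined. Inside the 159268 bases from the FCGR2A to the FCGR2B tail probe lie 7 probes of other names, of which 2 were above background on any array. A probe of HSPA6, a heat shock gene between the receptor genes, went from below background to relative signals of 0.279 and 0.304 with AZA. This was at least 1.47-fold in the parental line and at least 1.12-fold in the transduced line. The lowest detected relative signals on these AZA arrays were 0.190 and 0.296. A second HSPA6 probe in the cluster was below background on every array, at 0.047 to 0.123. The other detected probe has no gene name and lies on the minus strand, opposite to FCGR2C. It begins 108 bases past the end of the FCGR2C probe. Its relative signal was 0.369 in the parental line with vehicle and 1.46 in the parental line with AZA, a ratio of 3.95, and in the transduced line it went from 0.106, below background, to 1.24, at least 4.54-fold higher. Within 300 kb on either side of the cluster, 10 of 28 probes of other genes were measured in the parental line and 9 in the transduced line. Of these, 1 was at least 2-fold higher in the parental line, a probe of SDHC with a bound, and 0 in the transduced line, and the medians of the log2 ratios measured on both arrays were -0.29 and 0.06.

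**Figure D4:**
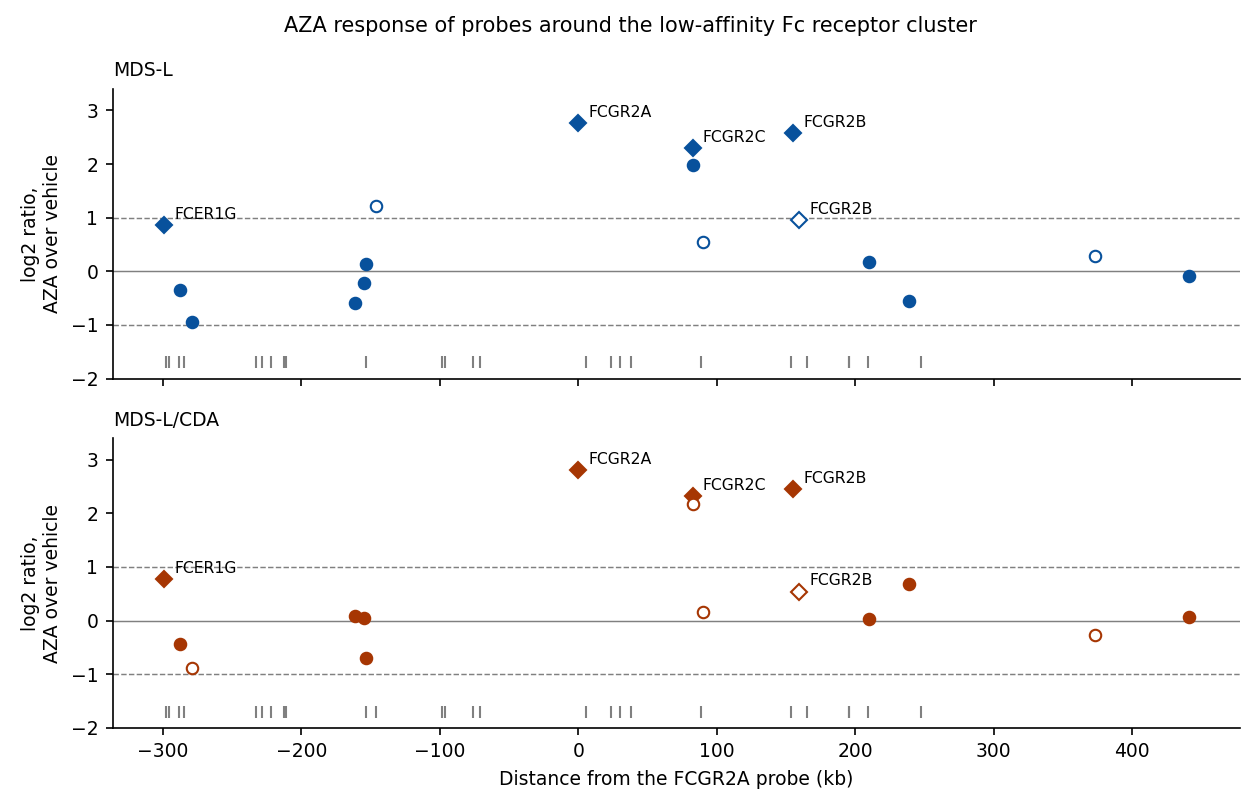
log2 ratio of AZA over vehicle by distance from the FCGR2A probe, in the parental line (top) and the transduced line (bottom), for probes up to 300 kb beyond the receptor cluster, with dashed lines at 2-fold. Diamonds are Fc receptor probes, circles other probes, open symbols bounds, and grey ticks probes below background on both arrays. The FCGR2A, FCGR2C and extracellular FCGR2B probes and the unnamed probe beside FCGR2C stand at 1.98 or higher, and all other symbols, with the bounds of the FCGR2B tail probe at 0.95 and 0.54, lie between -0.94 and 1.21.

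The promoter sequences of FCGR2A and FCGR2B, whose signals were higher with AZA, were set beside that of FCGR1A, whose probe was below background. The RefSeq table for GRCh38.p14 holds windows for 7 of the 9 genes, 14 windows in all, and none for FCGR1B and FCGR2C. The 250 bases before the start were used of each of 35116 windows. CD64 transcription in myeloid cells is known to need the Ets factor PU.1 (gene SPI1), and the capitals mark its core GAGGAA on either strand. FCGR2A is shown at chr1:161505207-161505456, FCGR2B, the second of its 2 windows, at chr1:161662893-161663142 and FCGR1A at chr1:149782444-149782693, all on the plus strand.
FCGR2A promoter: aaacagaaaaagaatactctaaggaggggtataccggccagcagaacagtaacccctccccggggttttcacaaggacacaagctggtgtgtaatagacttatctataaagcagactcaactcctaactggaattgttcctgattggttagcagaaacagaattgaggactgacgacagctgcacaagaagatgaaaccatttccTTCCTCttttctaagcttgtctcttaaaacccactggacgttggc
FCGR2B promoter: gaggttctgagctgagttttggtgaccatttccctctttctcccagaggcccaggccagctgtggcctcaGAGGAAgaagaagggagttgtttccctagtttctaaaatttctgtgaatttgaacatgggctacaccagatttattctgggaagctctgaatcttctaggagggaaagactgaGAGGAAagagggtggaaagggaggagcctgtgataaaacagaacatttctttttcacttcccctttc
FCGR1A promoter: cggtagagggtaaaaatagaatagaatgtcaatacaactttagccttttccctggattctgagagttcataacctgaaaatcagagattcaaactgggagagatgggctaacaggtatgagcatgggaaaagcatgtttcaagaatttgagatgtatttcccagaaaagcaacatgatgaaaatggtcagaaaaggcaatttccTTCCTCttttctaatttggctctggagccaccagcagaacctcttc
The PU.1 core was found in these 3 of the 14 windows, 2 times in that of FCGR2B, and in 23.6% of all windows. FCGR2A and FCGR1A share a block of 20 identical bases that begins 51 bases before the start of FCGR2A and 52 before that of FCGR1A and holds the core, and these were the only 2 of the 35116 windows that hold it. The block was picked as the longest run common to these 2 windows, so nothing is read from that count.
Shared block: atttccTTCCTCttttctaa
The interferon-gamma activated site TTCNNNGAA was found in 6.57% of all windows, among them 2 times in the printed window of FCGR2B and 1 time in that of FCGR1A. All motifs were searched on both strands, and no match overlapped another in the member windows. The GATA core AGATAA was found in 9.17% of all windows and 1 time in that of FCGR2A, as in 1 window of FCGR3A. CG pairs, the sites that AZA can leave unmethylated, numbered 4 in the FCGR2A window, 4 and 0 in the FCGR2B windows, 1 in that of FCGR1A, 7 in that of FCER1G and 5 in that of FCGRT, where the median of all windows was 11. Methylation was not measured on these arrays, and a matching stretch is not shown to be bound in these cells. The relative signal of SPI1 itself went from 69.0 to 53.9 with AZA in the parental line and from 76.8 to 74.2 in the transduced line, ratios of 0.781 and 0.966.

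Genes that act with or below the receptors were taken from lists chosen with earlier results of these data known, with 1 probe per gene, the one with the highest mean signal. Across all gene names 6.73% were at least 2-fold higher and 6.03% lower with AZA in the parental line, and 2.53% and 3.07% in the transduced line, with medians of -0.16 and 0.01 on the log2 scale. All levels below are relative signals.

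Among 17 other Fc receptors, 2 of the 6 measured in the parental line and 1 of the 4 measured in the transduced line passed 2-fold upward with AZA, and 0 passed it downward. FCER1A, the IgE-binding chain that is assembled with FCER1G on mast cells and basophils, went from 7.34 to 41.8 in the parental line and from 3.56 to 14.5 in the transduced line, with ratios of 5.70 and 4.07. MS4A2, the beta chain of that receptor, went from 1.27 to 4.75 in the parental line, a ratio of 3.72, and from below background at 0.247 to 0.412 in the transduced line, at least 1.51-fold. All 3 chains of the IgE receptor thus had ratios or bounds above 1 in both lines, FCER1G under 2-fold. TRIM21, a cytosolic antibody receptor, and FCRLB, an intracellular Fc receptor-like protein, had ratios between 0.846 and 1.13, and FCAR, FCER2, PIGR and FCRL3 were among those below background on every array.

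Among 16 other signalling adaptors and receptors that pair with FCER1G, 7 were measured in the parental line and 6 in the transduced line, with medians of 0.62 and 0.04. TYROBP (DAP12), an ITAM adaptor like FCER1G, was 78.1 and 169 in the parental line (ratio 2.16) and 71.2 and 113 in the transduced line (ratio 1.59). CLEC4D, a C-type lectin that signals through FCER1G, had ratios of 1.77 and 2.61. OSCAR, a collagen receptor that does the same, had ratios of 1.55 in the parental and 0.462 in the transduced line. CD247, the T cell zeta chain that can replace FCER1G under CD16 in NK cells, was below background on every array.

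Most of the activating cascade was measured, with changes under 2-fold. Of 31 genes from the Src family kinases to the NADPH oxidase, 29 were measured in the parental line, where 6 were at least 2-fold higher and 2 lower, and 27 in the transduced line, where 3 were higher and 0 lower. The medians were 0.11 and 0.09. SYK, the kinase that docks on phosphorylated ITAMs, had ratios of 0.745 and 1.11, and LYN, which phosphorylates ITAMs and ITIMs, 0.985 and 1.19. The kinase FGR was 0.432 and 4.16 in the parental line, a ratio of 9.64, with 1.62 in the transduced line, and FYN went from below background at 0.146 to 1.75 in the parental line, at least 9.21-fold, and was below background in the transduced line. LAT, the scaffold that nucleates the mast cell and T cell signalling complex, was 26.6 and 197 in the parental line (ratio 7.41) and 34.6 and 102 in the transduced line (ratio 2.95).

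The NADPH oxidase is switched on by Fc receptors. NCF1 had ratios of 4.54 and 2.21 and NCF4 of 2.30 and 2.64, both cytosolic subunits. CYBA, the smaller membrane subunit, had 0.737 and 0.852. CYBB, the catalytic membrane subunit, was below background on all 4 arrays.

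Of 20 inhibitors of Fc receptor signalling, 17 were measured in the parental line, where 2 were at least 2-fold higher and 1 lower, and 16 in the transduced line, where 0 passed 2-fold either way. The medians were 0.10 and 0.50. INPP5D (SHIP1), the lipid phosphatase that the FCGR2B tail recruits, had relative signals of 83.5 to 99.2 on the 4 arrays and ratios of 0.847 and 0.882. PTPN6 (SHP-1) had ratios of 1.15 and 1.87. The ITIM receptors PECAM1 and SIGLEC7 were 2.22-fold and at least 2.11-fold higher in the parental line, and LILRB2 had a ratio of 0.456 there and 1.55 in the transduced line.

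FCGRT works as a complex with B2M, the light chain of class I molecules, which had ratios of 0.807 and 1.08. Of 9 genes of this list, 7 were measured in each line, with 1 at least 2-fold higher and 1 lower in each. ALB, albumin, the other ligand of FcRn, was the one that was higher, from 0.363 to 17.9 in the parental line (ratio 49.3) and at least 2.03-fold in the transduced line. RAB11A, a small GTPase of recycling endosomes, was the one that was lower, with ratios of 0.234 and 0.342.

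**Figure D5:**
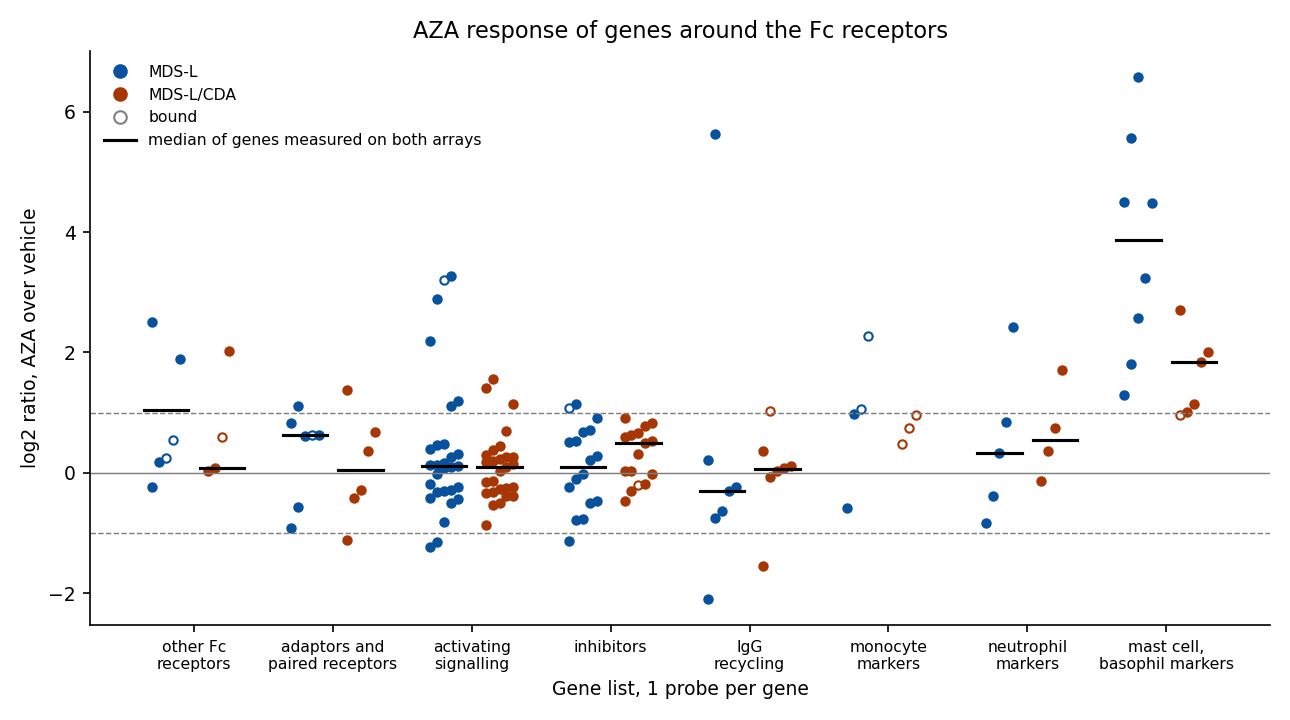
log2 ratio of AZA over vehicle for the genes of 8 lists, 1 probe per gene, in the parental line (blue) and the transduced line (brown), with open circles for bounds, black bars for the median where at least 3 genes were measured on both arrays and dashed lines at 2-fold. The medians in the parental and the transduced line are 0.11 and 0.09 for the activating list, 0.10 and 0.50 for the inhibitory list, and 3.86 and 1.84 for the mast cell and basophil markers.

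The AZA arrays also differed from the vehicle arrays in markers of blood cell types, and for a culture as a whole more cells of a type and more RNA per cell cannot be told apart. Of 10 mast cell and basophil markers on the array, all 8 that were measured were at least 2-fold higher with AZA in the parental line and 5 of the 6 measured in the transduced line. Their summed relative signal went from 43.8 to 296 in the parental line and from 25.7 to 82.1 in the transduced line. KIT, the stem cell factor receptor, had ratios of 47.3 and 3.58, HDC, which makes histamine, 9.45 and 4.03, CPA3, a mast cell protease, 3.52 and 6.54, and GATA2 2.46 and 2.01, while CMA1 and ENPP3 were below background on every array. PRG2, an eosinophil and basophil granule protein, CLC, the Charcot-Leyden crystal protein, and MS4A3 had ratios of 95.6, 22.7 and 22.5 in the parental line, and CLC and MS4A3 were below background in the transduced line. The ratio was larger in the parental line for KIT, HDC and GATA2 and smaller for CPA3.

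Markers of other blood cell types were then read. Of 9 monocyte and macrophage markers the summed relative signal went from 1.1 to 2.2 in the parental line and from 0.8 to 2.0 in the transduced line. CD163, MRC1, VCAN and S100A9 were below background on every array, CSF1R was above it in the 2 AZA arrays only, at 0.922 and 0.454, as was ITGAM, at 0.397 and 0.380, and CD14 stood at 0.353, 0.236, 0.104 and 0.530 in the order given for FCGR2A, below background in the transduced line with vehicle. Of 9 neutrophil markers the summed signals were 9.6 and 10.4 in the parental line and 2.6 and 4.5 in the transduced line, with ELANE, MPO, CEACAM8 and LTF below background on every array and MMP9, a gelatinase, at ratios of 5.39 and 3.27. CSF3R, the G-CSF receptor, was above background on every array, at 7.39 and 4.14 in the parental line and 0.674 and 0.616 in the transduced line. Of 7 B cell markers, MS4A1, PAX5, BLNK and CD22 were below background on every array, and the summed signal was 18.6 and 15.8 in the parental line and 20.8 and 21.3 in the transduced line. Most of that sum came from CD79A, a signalling chain of the B cell receptor, at 14.0 with vehicle in the parental line, with an AZA over vehicle ratio of 0.762, and at 15.8 and 15.2 in the transduced line, and CD79B, its partner, was at 3.92, 2.83, 4.18 and 5.00 in the order given for FCGR2A, both above background on every array. Of 9 NK and T cell markers, KLRD1, GNLY, CD3E and CD3G were below background on every array, CD3D was at least 23.5-fold higher with AZA in the parental line, NKG7 had ratios of 0.451 and 2.04, and the summed signal went from 2.3 to 6.7 and from 2.1 to 3.3. All 8 identity markers of the line were above background on every array. KIT, also in the mast cell list, was the 1 that was at least 2-fold higher in each line, at 47.3 and 3.58. CD38 had ratios of 0.359 and 0.725, and ITGA4 0.421 and 0.580. The summed signal, most of it from MYB, was 550 and 429 in the parental and 638 and 576 in the transduced line. The part of the markers of any of these cell types in the FCGR2 signals was not tested.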

How the data were processed

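RNA of 4 cultures was hybridized to 4 one-colour Agilent arrays (Cy3). The authors deposited each array's scanner output as spot intensity (Agilent Feature Extraction 10.7.1.1, positions on hg19), background-subtracted but not normalized between arrays. They also deposited a table of 51664 probes in the same unit, intensity. Its sorted columns lie within 0.039 log2 of each other, and its normalization is not given in the sources used here. Outlier spots were dropped, repeat spots of a probe averaged as log2, and arrays scaled to their 75th percentile. A call needed a ratio of at least 2 and the brighter side well above background. Signals below background entered at their own value or the array's lowest detected signal, whichever was larger, which gives a bound. The Z score of the study's methods was not used. The calls were tested on simulated data, with changes well past 2-fold planted only in probes well above background. That test does not cover smaller changes or signals near background. The members, the 12 gene lists, the motifs and the naming rule (every member probe, up to 6 genes per list past 2-fold, the 5 genes most like a member) were chosen with earlier results of these data known. Other genes were named for their role after their values were seen. Of 172 list entries, 168 had a probe. Some genes that the naming rule gives are not reported here. The number of arrays limits the precision. Alternatives were 6 other normalizations, other folds, a stricter background filter and the mean of a gene's probes. Software was Python 3.11.15 with numpy 2.4.6, pandas 2.3.3 and matplotlib 3.10.9, and limma 3.58.1 in R 4.3.3 for normexp (offset 50).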

Additional observations from a re-analysis of the deposited data

How the results depend on the processing

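Of the 72 recomputed counts of member probes past 2-fold, 60 stayed within 1.5 times and 12 moved. The count of 3 higher with AZA in the transduced line was 2 with normexp and 4 with a ratio of at least 1.5. In the parental line the count higher with AZA was 5 with scaling to the 75th percentile of probes detected on all arrays and 6 with a ratio of at least 1.5. The count lower there was 2 with median scaling or a ratio of at least 1.5, and 0 with normexp, with signal required on both arrays or with a ratio of at least 3. Between the vehicle arrays the count lower in the transduced line was 2 without scaling, 4 with median scaling, 2 with the 75th percentile of detected probes and 3 with a ratio of at least 1.5, and between the AZA arrays it was 2 without scaling. The cause was not tested. Of 132 recomputed log2 ratios of members 93 stayed within the spot error and 39 moved, and none of those past 2-fold changed sign. Between the vehicle arrays the log2 ratio of FCGRT, 0.24, turned to -0.28 with median scaling, and between the AZA arrays that of the FCGR2B tail probe, 0.11, turned to -0.40 without scaling. The FCGR2A ratio with AZA lay between 4.26 and 7.68 in the parental and between 3.29 and 7.04 in the transduced line, lowest with normexp, which brought the extracellular FCGR2B probe to 2.60 and 1.89. FCER1G in the parental line lay between 1.25 and 2.08, highest with quantile normalization. Median scaling moved the median log2 ratio of all probes with AZA in the parental line from -0.15 to -0.69. Of 294 list medians 211 stayed within 0.2 and 83 moved. No replicates could be paired because there was 1 array per condition, and a fit with the 2 lines as a block was not run.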

Other observations

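Besides the detected unnamed probe opposite to FCGR2C, 4 probes inside the receptor cluster carry neither a receptor gene's name nor that of HSPA6. These 4 had relative signals of 0.045 to 0.083, all below background. Among them were both probes of long noncoding RNAs named after FCGR3B. Among 23 genes on either side of the cluster or, for HSPA6, inside it, 15 were measured in the parental and 14 in the transduced line. The medians were 0.13 and 0.04 on the log2 scale. In the parental line 1 was at least 2-fold higher and 1 lower (6.67% each), against 6.73% and 6.03% of all gene names. In the transduced line 0 were higher and 1 was lower (7.14%), against 2.53% and 3.07%. LY9, a SLAM family receptor, had a ratio of AZA over vehicle of 0.297 in the parental and 0.925 in the transduced line. B4GALT3, a galactosyltransferase, had ratios of 1.20 and 0.367. ADAMTS4, a metalloprotease, was at least 2.85-fold higher in the parental line and below background in the transduced line.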
